A study of Mus musculus with 2 samples.

Results

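RIKEN cDNA clones that were first isolated from libraries of the mouse central nervous system were read in mammary gland RNA. The clones were chosen by name: probes other than controls whose name begins with the RIKEN prefix and the library code 6330 (medulla oblongata), 9330 (diencephalon), A230 (hypothalamus), A330 (spinal cord), A830 (neonate cortex) or B230 (corpora quadrigemina). This gave 1377 probes for 1377 clones, among 15675 RIKEN clone probes and 97836 probes in all. Code B230 supplied 341 clones, A230 308, A330 222, 9330 197, A830 211 and 6330 98. Each clone had 1 spot per array, apart from 2 clones of A830 with 2 spots.

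The study set out to find mRNAs and long non-coding RNAs that differ in the mammary gland when the microRNA miR-34a is lost. It held 2 one-colour Agilent arrays. The control was female mouse gland tissue of genotype miR-34a fl/fl, in which the miR-34a gene carries loxP sites but no Cre is described. The knockout was female gland tissue labelled miR-34a -/-, from floxed mice crossed to mice that express Cre in the mammary gland. Other cells of the gland need not have lost the gene. The promoter driving Cre, the ages and any pooling of animals are not given in the sources used here. Each genotype was read on a single array. No test was therefore made, and every difference given is one between 2 arrays. The errors given are the scanner software's own estimate for a spot and hold no spread between animals.

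RIKEN's mouse cDNA collection was built from RNA of many tissues by priming on poly(A) tails and enriching for full-length copies, and many libraries were normalised or subtracted so that abundant messages became rare among the clones. The library code therefore records where a clone was first picked, not where its transcript is made, and a clone from a brain library can belong to a gene that every cell uses. Many clones had no known protein and came from introns, antisense strands or the space between genes. A whole mammary gland holds epithelium, fat, vessels, connective tissue and some nerve fibres, but the cell bodies of central neurons are absent. In RNA from a whole gland, fewer cells of a type and less RNA per cell cannot be told apart.

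The microRNA removed in the knockout is printed because it is the sequence that the knockout was designed to remove. It is the RefSeq mature form on GRCm38.p6 (chr4:150068473-150068494, plus strand), with its seed, bases 2 to 8, in capitals.
mmu-miR-34a-5p: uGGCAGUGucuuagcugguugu
No probe of the array could be matched to the miR-34a gene, and the genotypes were taken as labelled.

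Of the 71 member clones that the RefSeq gene table named, 51 had a promoter there, read from 250 bases before to 50 after the start. Promoters of 4 genes are shown because they are the control regions of clones at opposite ends of the measurements: Srrm4 and Stxbp5l, genes of neurons whose clones were not well above background on either array, Trim23, the brightest on both arrays of the clones of named protein-coding genes with usable spots on both, and A330074K22Rik, the long non-coding RNA with the largest measured difference. They come from RefSeq on GRCm38.p6, each read 5′ to 3′ on the gene's own strand with every CG dinucleotide in capitals: Srrm4 chr5:116591768-116592067 (minus), Stxbp5l chr16:37384909-37385208 (minus), Trim23 chr13:104178589-104178888 (plus) and A330074K22Rik chr8:120228181-120228480 (minus).
Srrm4: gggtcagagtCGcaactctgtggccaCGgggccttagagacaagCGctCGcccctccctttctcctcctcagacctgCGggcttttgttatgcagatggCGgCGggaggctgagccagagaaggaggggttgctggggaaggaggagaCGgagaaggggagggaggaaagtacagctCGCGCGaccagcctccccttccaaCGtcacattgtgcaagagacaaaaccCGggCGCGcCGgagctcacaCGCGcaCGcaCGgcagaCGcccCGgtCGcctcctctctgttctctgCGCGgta
Stxbp5l: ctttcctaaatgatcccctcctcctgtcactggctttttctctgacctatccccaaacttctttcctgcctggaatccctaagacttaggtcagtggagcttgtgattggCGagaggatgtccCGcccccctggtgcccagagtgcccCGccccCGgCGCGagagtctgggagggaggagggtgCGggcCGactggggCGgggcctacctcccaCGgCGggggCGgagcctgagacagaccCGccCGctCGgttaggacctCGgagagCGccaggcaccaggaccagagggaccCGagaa
Trim23: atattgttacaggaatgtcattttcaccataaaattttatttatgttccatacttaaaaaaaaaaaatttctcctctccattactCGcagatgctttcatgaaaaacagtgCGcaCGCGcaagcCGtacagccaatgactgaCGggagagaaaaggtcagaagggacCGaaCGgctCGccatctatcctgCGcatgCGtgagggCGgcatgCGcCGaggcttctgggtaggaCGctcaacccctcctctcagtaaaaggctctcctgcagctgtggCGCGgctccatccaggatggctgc
A330074K22Rik: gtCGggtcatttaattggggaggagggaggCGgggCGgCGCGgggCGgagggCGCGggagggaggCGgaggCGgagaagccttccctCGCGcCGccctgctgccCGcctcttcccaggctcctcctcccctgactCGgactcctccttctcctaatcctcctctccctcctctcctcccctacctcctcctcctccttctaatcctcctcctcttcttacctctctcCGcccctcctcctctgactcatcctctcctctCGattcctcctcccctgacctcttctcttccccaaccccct

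The Srrm4 promoter, of an unseen clone, held 25 CG dinucleotides in its 300 bases, that of Stxbp5l 18, and those of Trim23 and A330074K22Rik 17 each. The median over the 51 promoters was 17, against 7 over all 27025 promoters of the table. It was 20.5 over the 34 of protein-coding genes and 7 over the 17 of long non-coding RNAs. The promoters of the whole table were not split by gene type, so the comparisons with it do not match the mix of types. Among protein-coding genes the median was 20.5 for the 26 whose clones were measured on both arrays and 21.5 for the 6 whose clones were well above background on neither. Among long non-coding RNAs it was 11 for 9 measured and 8.5 for 6 unseen. These medians rest on few promoters and were not tested. The TATA motif TATAAA, searched on both strands, was in 3 (5.88%) of the 51 promoters and 14.2% of all. CCAAT was in 45.1% and 37.9%, and GGGCGG, the GC box, in 47.1% and 35.9%. Each motif was counted separately, whether or not matches overlapped. Stxbp5l held 5 GC boxes and A330074K22Rik 4, Trim23 held 1, and Srrm4 held none. A match of letters is a description and not a bound site.

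A probe was called well above background where the scanner software marked all its usable spots so. Of the 1377 clones, 1370 had a usable spot on both arrays, and 73.1% of these were well above background on the control and 70.8% on the knockout array. The other RIKEN clones stood at 77.7% and 75.3%. Clones seen on both arrays, which count as measured, numbered 923 of 1370 (67.4%), against 10424 of 14248 (73.2%) for the other RIKEN clones and 71.3% for all probes. Against the other RIKEN clones that also had 1 spot, a set chosen after the data were seen, the share was 74.4%. The share of the member clones was thus lower by 5.79 percentage points than that of the other RIKEN clones and by 7.03 than that of the 1-spot set, gaps that describe these 2 arrays and were not tested.

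The share measured on both arrays was uneven over the 6 library codes. The medulla code 6330 had the highest share of clones measured on both arrays, 75% of 96. B230 (corpora quadrigemina) followed with 71.0% of 341, A230 (hypothalamus) with 69.6% of 306 and A330 (spinal cord) with 69.1% of 220. A830 (neonate cortex) had 62.9% of 210 and 9330 (diencephalon) 56.9% of 197. Among the 77 RIKEN codes with at least 50 usable probes, 9330 had the seventh lowest share and A830 the twelfth, while 6330 ranked 33 from the bottom. All 6 codes thus lay in the lower part of the order, and 1 of them, 6330, was above the share of the other RIKEN clones.

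**Figure D1:**
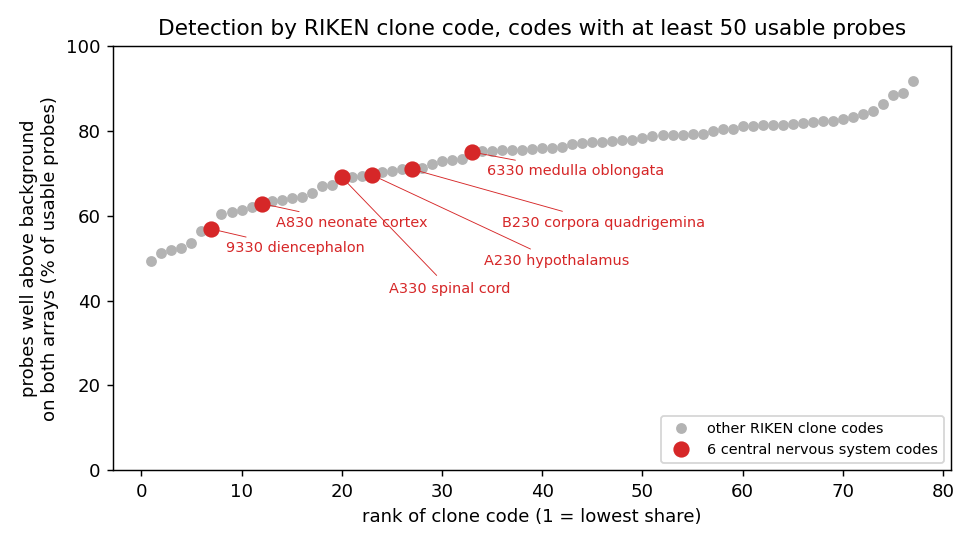
Share of usable probes well above background on both arrays (y axis, percent) for the 77 RIKEN codes with at least 50 usable probes, ordered from lowest to highest (x axis, rank). The 6 central nervous system codes, in red, lie between 56.9% (9330) and 75% (6330).

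Clones seen on 1 array were also unequally spread. Over all 6 codes, 78 clones (5.69%) were well above background on the control array alone and 47 (3.43%) on the knockout array alone. The background shares were 2.52% and 1.08% over all probes, 3.66% and 1.73% over the other RIKEN clones, and 4.35% and 2.36% over those with 1 spot. A probe with 2 spots needs both to agree, and a split pair entered none of these classes, so the 1-spot set is the closer comparison. In 9330, 20 of 197 clones (10.2%) were seen on the control array alone, the highest share of the 77 codes, against 6 on the knockout array alone. The other 5 codes had 6 to 18 clones on the control array alone and 3 to 14 on the knockout array alone. A further 322 clones (23.5%) were well above background on neither array, from 14.6% in 6330 to 30.5% in A830, against 18.5% of the other RIKEN clones, 18.9% of those with 1 spot and 19.0% of all probes.

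**Figure D2:**
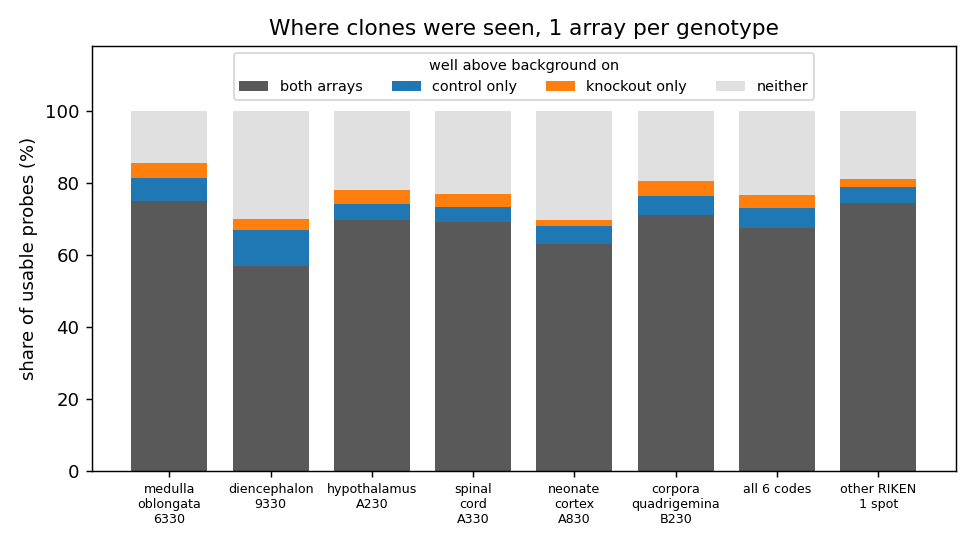
Share of usable probes (y axis, percent) well above background on both arrays, on the control array alone, on the knockout array alone or on neither, for each code, all 6 codes and the other RIKEN clones with 1 spot. The control-only share is 10.2% in 9330 and 4.35% in the other RIKEN clones with 1 spot.

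Clone length, which the probe names give, varied between codes. The median was 2112 bases over the member clones and 2091 over the other RIKEN clones. Clones of 9330 had a median of 2998 bases, the second longest of the 77 codes, and those of 6330 and A830 had 1792 and 1809. In the other RIKEN clones the measured share was 70.8% in the shortest class (up to 1578 bases), 73.3% in the middle class and 75.4% in the longest (over 2640 bases). In the member clones it was 69.8%, 67.2% and 65.2%, and leaving out 9330, which supplied 132 of the 451 long clones, it was 70.2%, 68.7% and 68.3%. The codes did not share 1 order: the shares were 77.4%, 69.2% and 92.3% in 6330 (13 long clones) and 67.4%, 53.1% and 66.7% in A830. In 9330 the share was 61.1% of 18 short, 53.2% of 47 middle and 57.6% of 132 long clones. These shares were not tested.

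Signals are given as log2 of the processed signal minus the array's 75th percentile, so that 0 is that percentile. The median usable clone lay at -2.60 on the control and -2.52 on the knockout array, against -2.05 and -2.07 for the other RIKEN clones. Above the 75th percentile were 186 clones (13.6%) on the control and 187 (13.6%) on the knockout array, against 18.7% and 18.5% of the other RIKEN clones. By code the control median was -2.25 in B230, -2.27 in 6330, -2.35 in A230, -2.52 in A330, -3.09 in A830 and -3.17 in 9330, the same 2 codes at the bottom as for detection. Probes differ in how well they bind, so these levels rank probe signals and not amounts of RNA.

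The brightest clones stood far above background on both arrays. A230095I06, from the hypothalamus library, lay at 4.76 on the control and 4.84 on the knockout array. A230024L23 lay at 4.03 and 4.34. B230105C15 lay at 3.93 and 3.58. The other 9 clones among the 2 brightest of each code on the control array ran from 1.51 (9330157E08, 0.61 on the knockout array) to 3.76 (6330593P21, 4.10). All 12 of the brightest clones lay less than 2-fold apart between the arrays, and none carries a gene name in the files or the gene table. Across the 923 measured clones the levels on the 2 arrays had a Pearson r of 0.944, across clones that share both arrays and are not independent.

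**Figure D3:**
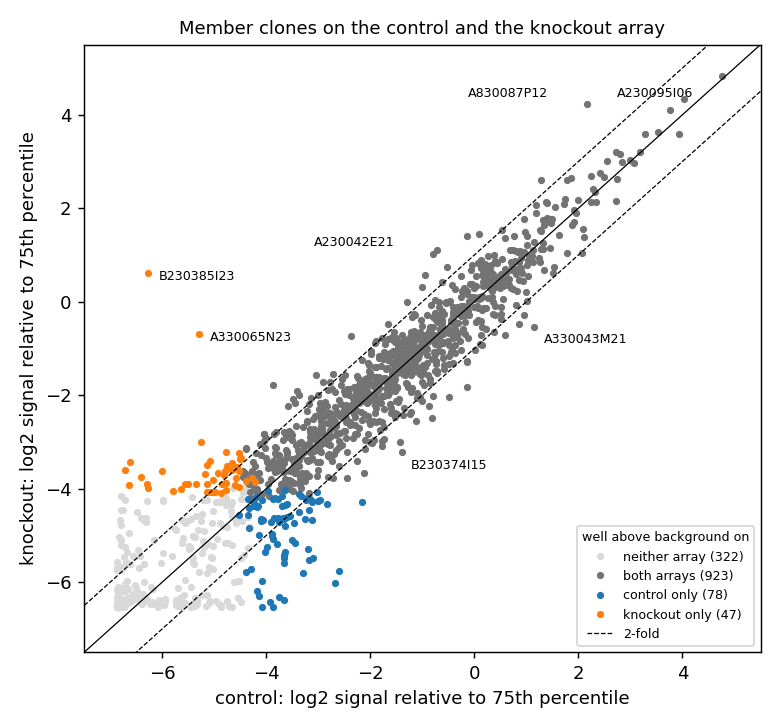
Level of each usable member clone on the control (x axis) and the knockout array (y axis), in log2 signal relative to the 75th percentile, coloured by the arrays on which it was well above background. Dashed lines mark 2-fold, and B230385I23 and A330065N23, seen on the knockout array alone, stand apart from the other clones at the upper left.

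Among the 923 measured clones, 37 (4.01%) were at least 2-fold higher in the knockout and 35 (3.79%) at least 2-fold lower. The background over all probes was 4.45% higher and 4.54% lower, and over the other RIKEN clones 4.24% and 4.73%. Over the other RIKEN clones with 1 spot it was 4.54% and 4.96%. The shares of the member clones were near the background in both directions. The median difference was 0.08 on the log2 scale, against 0.04 for the other RIKEN clones and 0.10 for all probes, and the central 80% of clones lay between -0.63 and 0.70. With the spike-in controls set equal on the arrays instead, every difference moved by -0.36, the member median became -0.28 and the counts 11 higher and 92 lower, so the direction of the whole set depends on the scaling. Clones at least 4-fold apart numbered 2 of 923, both of code A830 and higher in the knockout: A830087P12 and A830088M20, at 2.07 each. The second of these was dim, from -3.86 to -1.79, and is named after its value was seen. Of the 10424 other RIKEN clones measured, 47 were past 4-fold on the higher side and 74 on the lower. On each side this was a larger share than among the member clones.

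The 72 differences of at least 2-fold were each more than 2 spot errors in size, the smallest at 2.94. The median spot error of a difference was 0.21 on the log2 scale, and no error of a called clone was above 0.37. With errors of that size, any difference past the 2-fold limit had to exceed 2 errors, so this is no separate support. Where other RIKEN probes had 2 spots on an array, the median SD between them was 0.09 on the control and 0.10 on the knockout array, and 0.14 and 0.16 among the dimmest. Just inside the limit lay B230359F08 and A330012E03, both at 1.01, and B230364L15 at -1.002 and 9330200A12 at -1.005. Just outside lay B230211D20 at 0.998, A830028E23 at 0.997 and B230213P08 at -0.994. By brightness, 9.48% of the dimmest class of member clones, 6.17% of the middle and 7.57% of the brightest were 2-fold apart, against 10.6%, 8.94% and 7.45% of the other RIKEN clones.

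The counts of clones 2-fold apart are given by code and were not tested between codes. Beside them stand 8.99% of all probes, 8.97% of the other RIKEN clones and 9.50% of those with 1 spot. In A230, 14 of 213 measured clones were higher and 6 lower, and in A330 7 of 152 were higher and 3 lower. In B230, 5 of 242 were higher and 10 lower, in 9330 3 of 112 higher and 6 lower, and in A830 7 of 132 higher and 9 lower. In 6330 there was 1 of 72 on each side. The share apart ran from 2.78% in 6330 to 12.1% in A830, which ranked 17 from the top of the 77 codes. The median differences lay between -0.01 (6330) and 0.11 (B230), beside 0.10 over all probes.

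**Figure D4:**
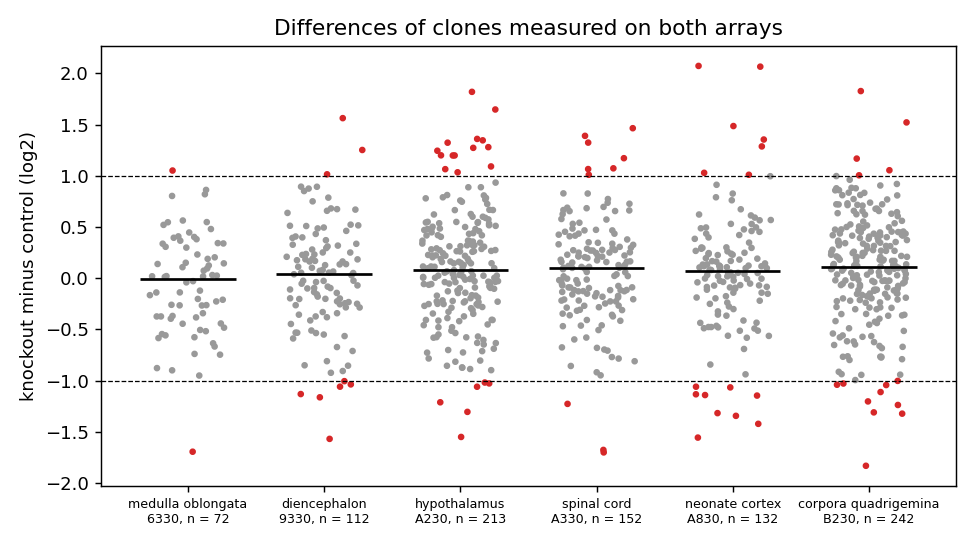
Knockout minus control difference (y axis, log2) of each clone measured on both arrays, by code. Black bars are medians, between -0.01 and 0.11, dashed lines mark 2-fold, and the 72 clones past them are in red.

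The largest differences among bright clones, those whose higher level passed the median of detected RIKEN probes, are described by code. In the medulla library the extreme was a clone of Yod1, given with the named genes. The other 5 clones named there lay between -0.95 (6330417H05) and 0.86 (6330416G21), all less than 2-fold apart. In the diencephalon library 9330158P05 lay at -0.15 on the control and 1.41 on the knockout array, with processed signals of 297 and 644, a difference of 1.56 (spot error 0.20). The lowest there was 9330209H12, from -1.24 to -2.41 (-1.16, error 0.23), followed by 9330015F20 (-1.13) and 9330103O16 (-1.04).

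In the hypothalamus library A230042E21 had processed signals of 190.2 and 492 and lay at -0.79 and 1.03, a difference of 1.82 (error 0.23). A230095H09 followed at 1.65 and A230102C22 at 1.35. On the lower side stood A230060M09, from -0.49 to -2.04 (-1.55), A230077E04 (-1.30) and A230018F20 (-1.06). In the spinal cord library A330043M21 had signals of 734 and 166, from 1.16 to -0.55, a difference of -1.70 (error 0.21). A330055K22 was at -1.68 and A330067K20 at -1.23. Its highest clones were A330074K22 (1.32), A330040L01 (1.17) and A330107F17 (0.83).

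In the neonate cortex library A830087P12 had signals of 1482 and 4550.2, from 2.17 to 4.24, a difference of 2.07 (error 0.20). This was the largest difference of the bright clones and ranked 47 from the top among the 11347 measured RIKEN clones. A830020E03 (1.01) and A830023E06 (0.79) followed. Lower were A830012P06 (-1.42), a clone of Dst (-1.34) and A830083P21 (-1.15). In the corpora quadrigemina library B230377E24 lay at -0.72 and 1.11 (1.83, error 0.21), with B230320C11 at 1.52 and B230215B20 at 1.05. B230374I15 was lower by the most of any measured member clone, from -1.39 to -3.22 (-1.83, error 0.26), then B230316E19 (-1.32) and B230107A03 (-1.24).

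The size of these differences depended on the background correction. Normexp was run with an offset of 50 added to every signal. An added constant shrinks the difference of a dim clone whatever its RNA, and so does background left in the signal. A fall below 2-fold under these settings therefore does not decide whether a dim clone differed. Under normexp correction of the median spot signals, 14 of the 40 clones named by rule and at least 2-fold apart stayed so, and 15 stayed so with no correction. A830087P12 stood at 1.87 under normexp, A230042E21 at 1.83, B230377E24 at 1.55, A330043M21 at -1.32 and Yod1 at -1.06. B230374I15 came to -0.61, 9330209H12 to -0.49 and A330055K22 to -0.77. None of the 40 turned its direction under the alternatives tried, but this is no separate support. A bound as computed could not pass 0, and the filters left measured differences as they were. The spike-in scaling moved every difference by -0.36, too little to turn one past the 2-fold limit.

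Clones seen on 1 array allow a lower bound only, the seen level against the lowest level called well above background on the other array (-4.52 on the control, -4.19 on the knockout array). Of the 47 clones seen on the knockout array alone, 12 had a bound of at least 2-fold, against 79 of 247 other RIKEN clones (32%) and 34.6% of all probes seen there alone. Of the 78 on the control array alone, 14 did, against 125 of 521 (24%) and 27.5%. The member clones did not exceed these shares. B230385I23, a short clone of 686 bases from the corpora quadrigemina library, had a processed signal of 4.25 on the control and 369 on the knockout array. This is a level at least 35.1-fold higher in the knockout, the largest such bound of the 1051 probes of the array seen there alone. A330065N23, of 3616 bases from the spinal cord library, went from 8.38 to 150.2 and stood at least 14.3-fold higher, the fifth largest.

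The bounds of these 2 clones stood at 3.18 and 2.06 on the log2 scale under normexp, and neither carried an outlier mark on either array. Each rests on 1 spot per array and has no gene name, and whether another array of each genotype would show them was not measured. The next bounds were 2.85-fold (9330134J15), 2.48-fold (B230362A05) and 2.44-fold (A230016A05). Under normexp these 3 came to 1.59-fold, 1.43-fold and 1.39-fold. On the control side the largest were at least 4.09-fold lower in the knockout (A230077M24), 3.01-fold (A230038K10), 2.85-fold (B230311E02), 2.57-fold (A230048G09) and 2.34-fold (A830098F13). Under normexp these 5 lay between -0.49 and -0.08, under 2-fold. Their processed control signals were 42.2 to 73.7, so the normexp offset of 50 alone shrinks such bounds. The same holds for the 3 smaller bounds on the knockout side, with knockout signals of 25.6 to 30.0. The normexp values therefore do not decide whether these bounds hold.

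The gene table named 71 of the 1377 clones: 42 by protein-coding genes, 28 by long non-coding RNAs and 1 by a T cell receptor V segment. Measured on both arrays were 31 of 41 usable coding clones (75.6%), against 79.6% of the other RIKEN clones named by coding genes. For long non-coding RNAs it was 14 of 28, against 54.8%, and for the 1300 usable clones with no gene name 67.5% against 73.6%. The share measured on both arrays was thus lower for the member clones in each class, and these shares were not tested. For long non-coding RNAs, the share was 60.7% against 60.0% on the control array, and 53.6% against 57.0% on the knockout array. The other RIKEN clones here include probes with 2 spots. Of the 72 clones at least 2-fold apart, 67 had no gene name, near the 877 of 923 among all measured member clones.

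Of the 31 measured coding clones, 1 was at least 2-fold higher (Atg12), 2 were at least 2-fold lower (Yod1 and Dst), against 3.7% and 5.13% of the other RIKEN clones of coding genes, and 23 lay within 0.5 of 0. With so few, the shares do not stand apart from that background. Above 0 were 19 and below 12, a split that the spike-in scaling would move. The clone of Yod1, a deubiquitinating enzyme of protein quality control at the endoplasmic reticulum, had signals of 300.1 and 68.0 and lay at -0.14 and -1.83, a difference of -1.69 (error 0.21). That of Dst, a plakin that links cytoskeletal filaments and has epithelial as well as neuronal forms, lay at -0.88 and -2.22 (-1.34, error 0.22; -0.70 under normexp). Atg12, a ubiquitin-like protein that is joined to Atg5 in autophagy, was dim, at -3.48 and -2.09 (1.39, error 0.26; 0.62 under normexp). Ulk2, an autophagy kinase, lay at -4.11 and -3.82 (0.30).

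The brightest coding clones are given next. Trim23, an E3 ubiquitin ligase with a GTP-binding domain, lay at 2.34 and 2.13. Phka2, the liver regulatory subunit of phosphorylase kinase, lay at 0.43 and 0.84, and Ncor1, a corepressor of nuclear receptors, at 0.20 and 0.81. Dennd5b, an exchange factor for Rab proteins, lay at 0.17 and 0.43, and Ndufa6, a subunit of respiratory complex I, at 0.15 and 0.57. These 5 differed by -0.20 to 0.60, less than 2-fold, and were the 5 above the 75th percentile among the 41 coding clones usable on both arrays. The clone of Tmem39b, left out for an outlier control spot, lay at 3.38 on the knockout array.

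Some clones belonged to parts of the transcription machinery. Polr3a, the largest subunit of RNA polymerase III, lay at -2.54 and -1.64 (0.89), Med15 of the Mediator complex at -1.43 and -0.89 (0.54) and the ETS factor Elf2 at -2.12 and -2.40 (-0.28). Polr2g, a subunit of RNA polymerase II, was seen on the control array alone, with a bound of -0.50, and Ice2, of an elongation complex of RNA polymerase II, was well above background on neither array. Mitochondrial genes included Atpaf1, an assembly factor of the ATP synthase, at -0.42 and -1.08 (-0.67), and Lyrm7, an assembly factor of complex III, at -1.74 and -1.65 (0.08). Zw10, a kinetochore protein, differed by 0.01 and Fancl, a ubiquitin ligase of DNA repair, by 0.05.

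Genes known for work in neurons or at membranes gave a mixed picture. Ptprd, a receptor phosphatase that acts in synaptic adhesion, lay at -1.49 and -1.85 (-0.36), and Slc12a2, the sodium, potassium and chloride cotransporter, at -1.17 and -1.13 (0.04). Clones of Srrm4, a splicing regulator of neurons, Stxbp5l, a tomosyn that limits vesicle release, and Disp2 of the Dispatched family were well above background on neither array, with processed signals of 2.76 to 4.43. Of the genes of cilia, Cfap44 and Ttc26 were not seen either, and Dnah1, an axonemal dynein, lay at -4.25 and -3.77, at the edge of detection. Anapc10, of the anaphase-promoting complex, is used by dividing cells of every kind and was not well above background either. Its clone lay at -4.76 and -4.29, close under the lowest detected levels of -4.52 and -4.19. An unseen clone therefore says that this probe was not well above background, not that the gene is silent.

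**Figure D5:**
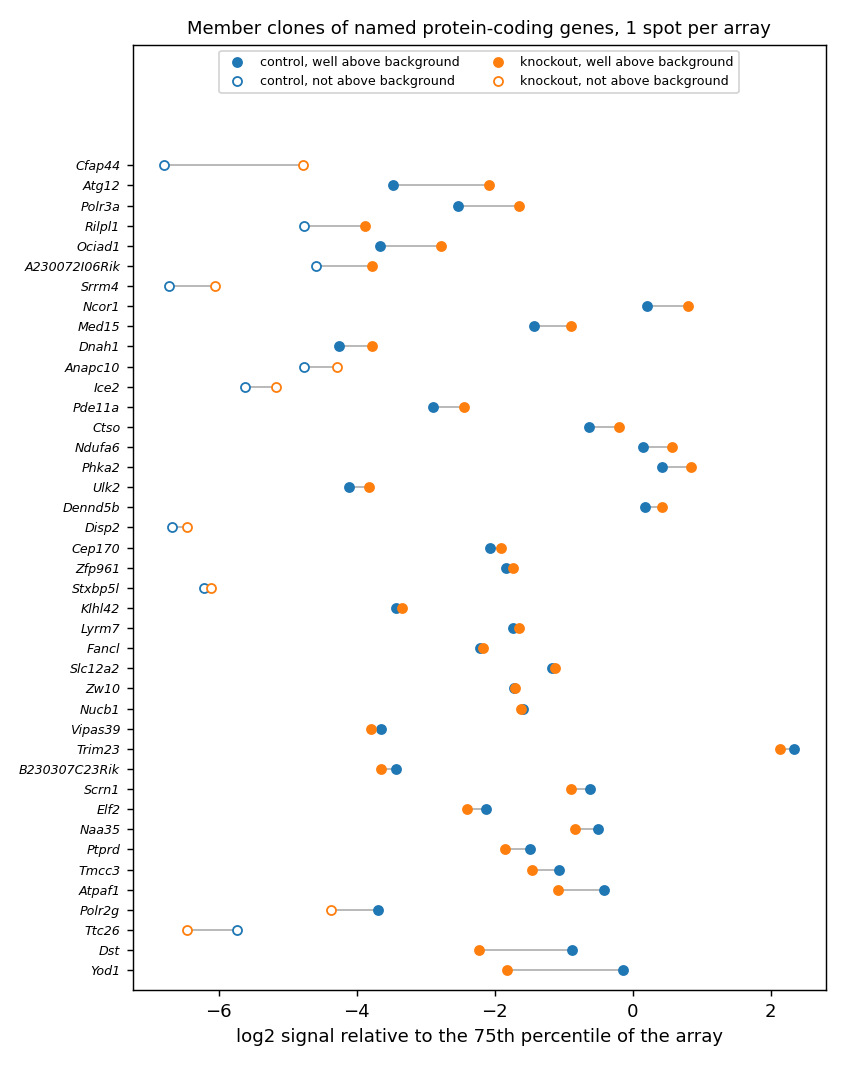
Level of member clones of named protein-coding genes on the control (blue) and the knockout array (orange), in log2 signal relative to the 75th percentile (x axis), ordered by difference. Open circles are not well above background. Yod1 and Dst lie at the bottom, with differences of -1.69 and -1.34, and Srrm4 and Stxbp5l are open on both arrays.

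Among the long non-coding RNAs, A330074K22Rik, which lies between Cibar2 and Gse1, was the 1 at least 2-fold apart: its clone had signals of 165 and 302 (1.32, error 0.21; 1.02 under normexp and 0.97 with spike-in scaling). The next were 6330525I24Rik, at -1.58 and -0.76 (0.82), and B230319C09Rik, which overlaps the DNA demethylase gene Tet3, at -2.68 and -1.94 (0.74). On the lower side the extreme was 9330117O12Rik, at -1.74 and -2.29 (-0.55). The clone of Celrr, beside the homeobox gene En1, lay at -2.34 and -2.26, far below a RefSeq probe of that gene (2.88 and 3.11). A230057D06Rik, beside the imprinted gene Ndn, lay at -3.08 and -2.76.

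Not well above background on either array were 10 of the 28, among them 9330158H04Rik (overlapping the muscarinic receptor gene Chrm2), A330033J07Rik (overlapping Id4) and B230323A14Rik (beside Foxb1). A230072I06Rik, beside Sox1 and classed as coding by the table, was seen on the knockout array alone with a bound of 0.75. Seen on the control array alone were 9330188P03Rik (bound -0.69), A230020J21Rik (-0.53) and Mccc1os (-0.32), all under 2-fold. The V segment Trav13-5, a receptor gene of T cells, lay at -3.18 and -2.18 (1.01, error 0.26; 0.68 under normexp).

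Of 13 lists of marker genes for neurons, glia, brain regions and the cell types of the mammary gland, 11 had no member clone in, over or beside a listed gene. The astrocyte list was met by A830021F12Rik, which overlaps the water channel gene Aqp4, at 0.61 and 0.66. The keratinocyte list was met by A830036E02Rik, beside Krt10, at -2.83 and -2.91. Both differed by less than their spot errors. On the whole array the names reached 1 of 32 neuron markers, 1 of 10 markers of mammary epithelium and 1 of 9 of white fat, because most mRNA probes carry catalogue numbers. The labelled tissue, and the part of any cell type in the shares above, could therefore not be checked on markers and was not tested.

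For 7 named genes the array held another probe. The RefSeq probe for B230206H07Rik lay at -0.82 and -2.38 (-1.56, error 0.22), while the member clone of the same name was well above background on neither array. A830021M18Rik likewise was seen through its RefSeq probe (-0.03) and not through the clone. For 9330188P03Rik the RefSeq probe was seen on both arrays (-0.53) and the clone on the control array alone, both lower in the knockout. Celrr differed by 0.24 on the RefSeq probe and 0.08 on the clone, but the levels were far apart. The RefSeq probe lay at 2.88 and 3.11, the clone at -2.34 and -2.26. Vipas39 differed by -0.29 on another RIKEN clone and -0.14 on the member. Lyrm7 was not seen through its other clone. Probes of 1 gene therefore disagreed on detection in 5 of the 7 cases.

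Outside these measurements were 7 clones whose control spot carried an outlier mark, and in A330069H18 the knockout spot as well. With those spots kept, all 7 were well above background on both arrays, and their differences ran from -1.74 (A230082G13) to 0.70 (6330509E05, a clone of Tmem39b). The 2 clones with 2 spots were A830002C08, at -1.13 and -1.20 (-0.07), and A830001B20, well above background on neither array. The arrays as a whole had 77.3% and 75.4% of 175906 spots well above background, 0.893% and 0.430% outlier spots and no saturated spot. Their number limits the precision of every value given.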

How the data were processed

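Total RNA of control and of knockout mammary gland was amplified, labelled with Cy3 and hybridised to 1 array each, per the labels' protocols. The authors deposited scanner files of spot intensity made with Agilent Feature Extraction (10.7 per the submitters' processing notes, 11.5.1.1 per the file headers; design on mm9), whose processed signal is background-corrected. A deposited table of log2 values equalled log2 of that signal minus 8.40 (control) and 7.95 (knockout) for 100% of probes within 0.0001. Outlier spots were left out, spots of a probe averaged, and each array's 75th percentile of log2 signal subtracted (8.36 and 7.92 over 97373 probes). Measured means well above background on both arrays; the limit was 2-fold, with no test.

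The members and lists were chosen with earlier results of these data known. Clones were named by rule: per code the 3 largest differences each way among brighter clones and the 2 brightest, the 5 largest bounds each way, named genes 2-fold apart or seen on 1 array, clones with 2 spots, and clones at listed marker genes (67 clones). Others named in the text were chosen after their values were seen, and 1 long non-coding RNA is not reported here. Of 1377 clones 71 matched the RefSeq gene table by clone name, as symbol or synonym. Alternatives covered scaling, background, filters, fold limit and comparison set. Python 3.11.15, pandas 2.3.3, R 4.3.3 and limma 3.58.1 (normexp, offset 50) were used. The calls were also run on simulated data with planted changes well past 2-fold, low noise and every spot well above background. That run checked the code only. It cannot show how accurate the calls are for dim clones or across animals.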

Additional observations from a re-analysis of the deposited data

How the results depend on the processing

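No paired analysis was possible because each genotype had 1 array, so leaving out a replicate did not apply. Precision is limited by the 2 arrays, by single spots and, for dim clones, by signal close to background.

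Higher and lower clones, 37 and 35 as reported, became 11 and 92 with spike-ins set equal (median difference -0.28), 9 and 5 with normexp, 13 and 6 with no background correction, 102 and 105 with no filter on dim probes, 16 and 18 with the stricter filter (also brighter than the median detected probe on at least 1 array), 128 and 101 at 1.5-fold, and 2 and 0 at 4-fold. For the other RIKEN clones, 442 and 493 as reported, the same settings gave 187 and 1164 (median -0.31), 150 and 155, 228 and 197, 996 and 1008, 229 and 279, 1438 and 1336, and 47 and 74. The causes were not tested, apart from the fold limits and filters, which change what is counted. The offset of 50 in normexp shrinks the differences of dim clones by construction.

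For 1 array, the stricter filter asked for a level above the median detected probe of that array. For both arrays it asked for this on at least 1 of them, so that share can exceed the others. It took the share of member clones to 25.9% (control), 25.3% (knockout) and 28.8% (both), and of the other RIKEN clones to 33.2%, 31.5% and 35.7%. By code the share for both arrays was 34.4% for 6330, 21.8% for 9330, 33.7% for A230, 26.4% for A330, 23.8% for A830 and 31.4% for B230. With any spot counted, the other RIKEN clones stood at 79.2%, 77.2% and 74.9%. Those with 1 spot stood at 78.7%, 76.8% and 74.4%, an alternative chosen after seeing the data. Probes that are not RIKEN clones stood at 75.1%, 72.9% and 71.0%. In each of these the member clones had the lower share.

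Of the 40 named clones at least 2-fold apart, 31 stayed so with spike-ins set equal, 14 with normexp and 15 with no background correction. None turned its direction, which is no separate support for the reasons given with the named clones. Scaling on the median of detected probes, quantile scaling, the deposited table and keeping outlier spots left all 40 at least 2-fold apart. Apart from quantile scaling, these settings could hardly change that count. The deposited table holds the same signal minus a constant per array. Median scaling shifted every difference alike, that of the Yod1 clone from -1.6936 to -1.6941. The 40 clones had single spots with no outlier mark, so keeping outlier spots touched only the scaling.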
